A study of Mus musculus with 48 samples.

Results

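The regions described here are places on the mouse genome that C/EBPa occupied in the fetal liver at embryonic day 15.5 (E15.5) and no longer occupied in both replicates at postnatal day 60 (P60). Peaks of both replicates of a stage were merged wherever they overlapped by 1 base or more, and a stage region was kept if it held a peak of each replicate. Stage regions of 5 stages were merged in the same way into 107812 regions, of which 10191 held an E15.5 stage region. Of these, 2140 (21.0%) held no stage region of P60 and are called lost; the other 8051 held one and are called kept. The members were chosen by their C/EBPa peaks at E15.5 and P60, so their values in those lists are a description and were not tested. At the edge of the rule, 7 kept regions had E15.5 and P60 parts that shared no base and 2 had parts that shared 1 to 100 bases. On the other side, 5 lost regions held a peak of each P60 replicate that did not join.

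The series profiled livers of F1 mice of C57Bl6 and CBA parentage, described as male, untreated and fed either chow or a high fat diet, with no diet given per sample. Chromatin immunoprecipitation with sequencing (ChIP-seq) of C/EBPa and of HNF4a was done in wild-type livers at E15.5, E18.5, postnatal day 0.5 (P0.5), P14 and P60, with 2 replicates each, giving 20 peak lists. RNA sequencing covered 3 wild-type (WT) livers, 3 livers with floxed C/EBPa (C/EBPa lox/lox) and 2 with floxed HNF4a (HNF4a lox/lox), both with Alfp-Cre. The sample labels give the RNA livers an age of 60 postnatal days, whereas the series text places them at E18.5. In the WT livers Afp, a plasma protein gene of the fetus, stood at 499143 to 706964 normalized reads. The 22 erythroid marker genes summed to 1076053 to 4016716 there. Which age applies was not tested. Alfp-Cre is driven by albumin and alpha-fetoprotein control elements, so it deletes in hepatoblasts and their progeny, and blood, endothelial and stellate cells keep the gene. The polymerase II and input samples were not analysed here.

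C/EBPa is a basic leucine zipper factor that binds as a dimer to a palindromic site and is needed both for the hepatocyte programme and for the formation of granulocytes. HNF4a is a nuclear receptor that binds direct repeats and occupies many hepatocyte enhancers together with C/EBPa. The liver of the mid-gestation fetus is a blood-forming organ, in which hepatoblasts lie among erythroid, granulocyte and macrophage precursors; the blood cells leave around birth as hepatocytes mature.

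Lost regions lay over the start of 60 annotated genes, 36 of them protein-coding. The promoters of 5 of these genes are shown because they carry the kinds of gene that recur below: a fetal plasma protein (Afp), 2 neutrophil granule proteins (Ltf, Mmp8), a gene whose RNA was nearly absent without C/EBPa (Lrtm1) and the transferrin receptor (Tfrc). Each runs 5′ to 3′ from 250 bases before to 50 bases after the RefSeq start in GRCm38.p6, and capitals mark matches to the C/EBP half-site pair TTGCNNAA on either strand.
Afp: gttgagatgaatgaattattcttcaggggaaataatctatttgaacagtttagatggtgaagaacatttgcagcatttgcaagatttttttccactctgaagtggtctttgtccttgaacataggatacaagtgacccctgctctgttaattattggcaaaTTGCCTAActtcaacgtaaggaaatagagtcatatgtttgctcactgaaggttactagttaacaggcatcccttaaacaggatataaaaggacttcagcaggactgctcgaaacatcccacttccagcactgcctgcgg
Ltf: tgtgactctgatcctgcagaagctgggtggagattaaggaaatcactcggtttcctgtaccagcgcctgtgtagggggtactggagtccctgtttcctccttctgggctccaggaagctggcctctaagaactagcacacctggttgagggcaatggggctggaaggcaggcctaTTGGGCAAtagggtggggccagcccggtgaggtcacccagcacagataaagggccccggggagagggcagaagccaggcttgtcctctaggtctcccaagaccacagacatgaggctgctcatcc
Mmp8: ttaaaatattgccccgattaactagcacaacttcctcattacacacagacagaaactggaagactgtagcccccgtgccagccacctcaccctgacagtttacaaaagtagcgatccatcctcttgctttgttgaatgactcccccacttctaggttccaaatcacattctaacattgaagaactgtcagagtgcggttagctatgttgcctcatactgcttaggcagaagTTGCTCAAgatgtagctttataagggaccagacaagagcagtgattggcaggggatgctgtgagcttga
Lrtm1: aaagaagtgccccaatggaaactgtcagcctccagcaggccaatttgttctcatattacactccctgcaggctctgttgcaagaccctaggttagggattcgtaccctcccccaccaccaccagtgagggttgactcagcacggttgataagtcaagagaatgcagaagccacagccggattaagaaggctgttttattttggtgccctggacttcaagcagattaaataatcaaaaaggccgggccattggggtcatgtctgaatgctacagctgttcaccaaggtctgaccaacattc
Tfrc: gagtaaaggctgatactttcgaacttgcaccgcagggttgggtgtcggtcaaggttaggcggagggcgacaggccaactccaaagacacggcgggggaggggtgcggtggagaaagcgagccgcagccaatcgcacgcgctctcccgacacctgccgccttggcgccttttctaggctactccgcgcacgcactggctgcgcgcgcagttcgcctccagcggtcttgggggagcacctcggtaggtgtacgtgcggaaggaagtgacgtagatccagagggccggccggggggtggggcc
These promoters lie at chr5:90490464-90490763, chr9:111019042-111019341, chr9:7558179-7558478, chr14:29017958-29018257 and chr16:32608646-32608945 of GRCm38.p6, all on the plus strand. The peak lists use the older build mm9, and no coordinates were converted between the builds. The gene span had the same length in both annotations for Afp, Ltf, Mmp8 and Lrtm1, and for Tfrc it was 23875 bases in the deposited table and 23899 in RefSeq. Measured from the start in the deposited table, the lost region ran from base -311 to 225 at Afp, from -383 to 279 at Ltf, from -322 to 182 at Mmp8, from -570 to 206 at Lrtm1 and from -1050 to 314 at Tfrc. Each therefore spanned the window printed if both annotations place the start alike. The match began at base -89 in Afp, at -75 on the reverse strand in Ltf and at -19 in Mmp8. Lrtm1 and Tfrc held none in these letters.

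Promoters could be matched by gene identifier or symbol for 36 of the 60 genes. TTGCNNAA was found on either strand in 9 of them (25%), in 178 of 685 promoters under a kept region (26.0%) and in 10.7% of all 27025 promoters of the same length. The full palindrome TTGCGCAA, which TTGCNNAA includes, was in 0 of 36 promoters under lost regions, in 2.77% of those under kept regions and in 0.189% of all. AGATAA, the core recognised by GATA factors, was in 7 of 36 (19.4%), against 7.45% under kept regions and 11.4% of all promoters. GGAAGT, a core recognised by ETS factors such as PU.1, was in 33.3%, against 26.4% and 24.1%. CAAAGTCCA, an HNF4 site, was in 1 promoter under a lost region (2.78%), against 0.584% and 0.474%. Median GC content was 52.5% under lost regions, 58.7% under kept regions and 52.7% over all promoters. With 36 promoters 1 match is worth several percentage points, and these shares were not tested.

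Some of the lists stand apart. The P60 lists of C/EBPa held 52237 peaks in replicate 1 and 89407 in replicate 2. In the same order, the other C/EBPa lists held 16900 and 13434 peaks at E15.5, 108853 and 70171 at E18.5, 107438 and 121624 at P0.5, and 40636 and 45245 at P14. The part of list size in the stages at which a region was called bound was not tested. Of the lost regions, 824 (38.5%) held no P60 peak at all, 184 (8.6%) held one of replicate 1 alone and 1127 (52.7%) held one of replicate 2 alone. "Lost" therefore means that binding was not called in both P60 livers; for 38.5% of the regions it was called in neither. Regions described below as bound up to a stage, or at E15.5 alone, may still hold a P60 peak. Deciding P60 binding from replicate 2 alone left 1011 lost regions. Deciding E15.5 binding from 1 list gave 4789 lost regions with replicate 1 alone and 3914 with replicate 2 alone. Both P0.5 lists of HNF4a held the same peaks and count as 1, leaving 9 distinct HNF4a lists. The E18.5 HNF4a lists held only 35.3% and 29.2% of the HNF4a stage regions of E15.5, against 50.0% to 61.6% in the later lists, so results that use them are also given without them.

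Binding at the lost regions was usually called through birth, and last called at P0.5 or P14. A C/EBPa stage region was present at E15.5, E18.5 and P0.5 but not at P14 in 963 (45.0%), and at P14 as well in 900 (42.1%). Binding was called at E15.5 alone in 157 (7.3%), and the rest had gaps in the series: 64 were bound at E15.5 and P0.5, 25 at E15.5 and E18.5, 17 at E15.5, P0.5 and P14, 11 at E15.5 and P14, and 3 at E15.5, E18.5 and P14. The last stage with binding was P0.5 for 1027 regions (48.0%) and P14 for 931 (43.5%). Of the kept regions, 7670 (95.3%) were bound at all 5 stages.

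**Figure D1:**
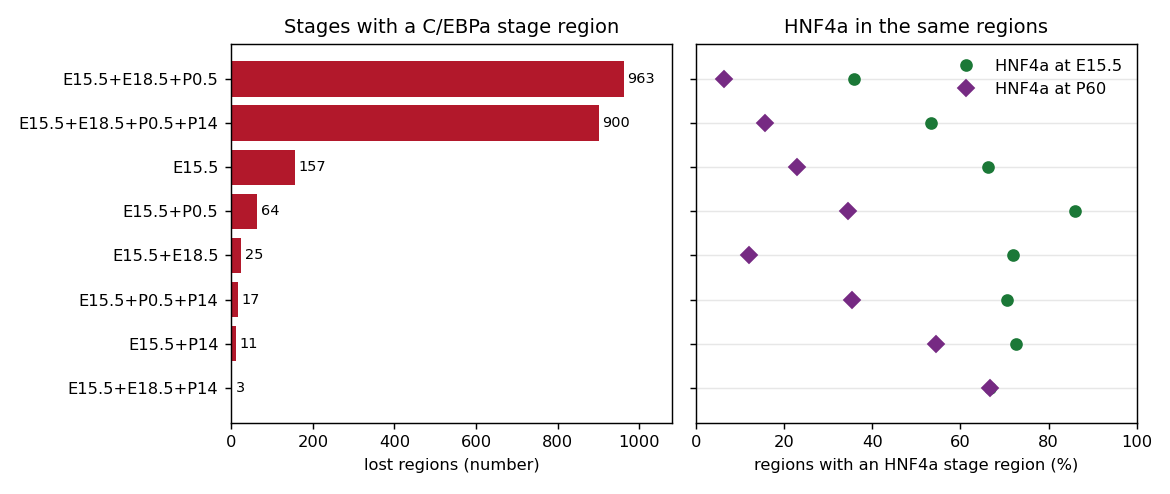
Left, the number of lost regions (horizontal axis) by the stages at which they held a C/EBPa stage region; right, the percentage of the same regions with an HNF4a stage region at E15.5 (circles) and at P60 (diamonds). The 963 regions bound up to P0.5 and the 900 bound up to P14 make up most of the set, and HNF4a was less frequent at P60 than at E15.5 in 7 of the 8 patterns and equal in the pattern with 3 regions.

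Peak by peak, a C/EBPa peak was found in 90.2% and 91.7% of lost regions in the E18.5 lists and in 92.4% and 92.8% in the P0.5 lists, against 99.5% to 99.7% of kept regions. At P14 the shares were far apart: 47.1% and 54.3% of lost regions held a peak, against 96.2% and 97.8% of kept regions. The P14 lists were also smaller, with 40636 and 45245 peaks against 70171 to 121624 at E18.5 and P0.5, and the part of list size was not tested. Lost regions had the lower share in 6 of 6 lists of these middle stages, with a mean difference of -20.6 percentage points (SD 20.0, n = 6 lists). The peaks of these lists helped to set the extent of the merged regions, and the classes were chosen by peaks of the same factor at E15.5 and P60. This value is therefore a description, and no p-value is given. With regions merged from the E15.5 and P60 lists alone, a choice made after seeing the data, 2177 regions were lost and the difference was -20.7 points. Over the other ways of defining the regions it ran from -17.6 points, with P60 decided by replicate 1 alone, to -37.8 points, with E15.5 decided by replicate 2 alone. It was -31.7 points with P60 decided by replicate 2 alone and -30.5 for the 824 regions with no P60 peak. At P60 the shares that define the set were 8.8% in replicate 1 and 52.9% in replicate 2.

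The HNF4a lists were not used to choose the regions. Kept regions were chosen for C/EBPa at P60, and HNF4a occupies many of the same enhancers. The part of that choice in the HNF4a differences, above all in the later lists, was not tested. At E15.5 a HNF4a peak lay in 56.1% and 50.3% of lost regions (95% Wilson intervals 54.0 to 58.2 and 48.2 to 52.4, counting error only) and in 67.6% and 60.8% of kept regions. At P60 it lay in 20.7% and 17.5% of lost regions (intervals 19.0 to 22.4 and 16 to 19.2), against 69.5% and 72.3% of kept regions. The lists between gave 16.7% and 14.3% of lost regions at E18.5, 17.8% at P0.5, and 11.3% and 11.9% at P14; the kept regions held a peak in 34.2%, 29.4%, 48.7%, 54.9% and 56.1%. Lost regions were thus lower in 9 of 9 distinct lists, and the lost and kept shares came closest at E15.5. The mean difference over the lists was -30.8 points (SD 17.5, n = 9), with an exact sign-flip permutation p of 0.0039 (2-sided, adjusted p = 0.0117), the smallest that 9 lists can give. Without the E18.5 lists it was -34.9 points (exact permutation p = 0.0156). Replicate lists of a stage count here as separate values although they share the stage.

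**Figure D2:**
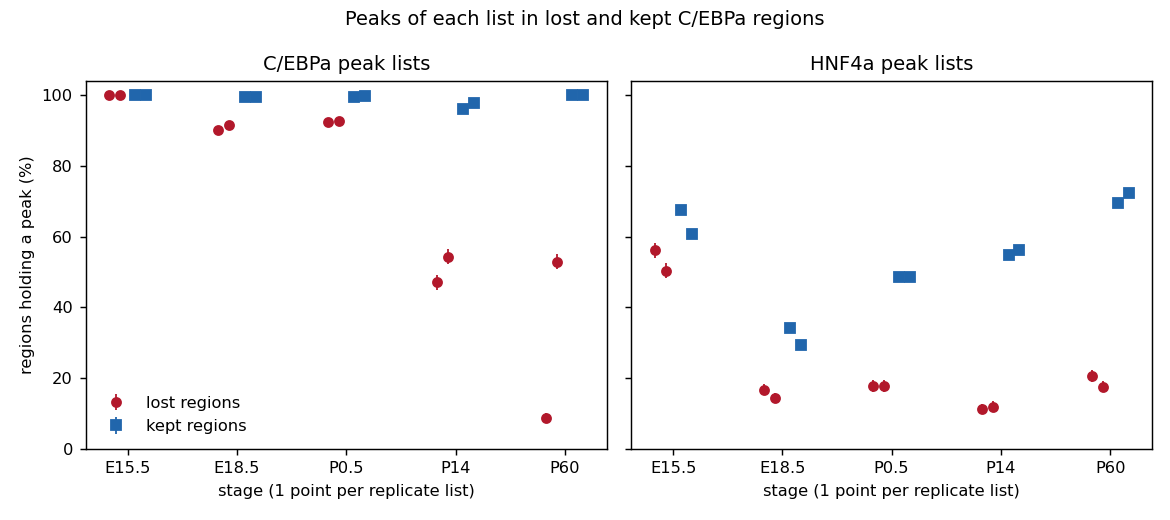
Percentage of lost (circles) and kept (squares) regions that hold a peak of each replicate list, by stage, for C/EBPa (left) and HNF4a (right); bars are 95% Wilson intervals and are often smaller than the symbols. The HNF4a gap between lost and kept regions widens from -11.5 and -10.5 points at E15.5 to -48.8 and -54.8 points at P60.

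The HNF4a difference grew with age. It averaged -13.6 points in the 4 lists of E15.5 and E18.5 and -47.9 points in the 4 lists of P14 and P60, a difference of 34.2 points (exact permutation p = 0.0286, 2-sided, the smallest that 4 against 4 can give; adjusted p = 0.0312). Without the E18.5 lists it was 36.8 points, with an exact permutation p of 0.0667, the smallest that 2 lists against 4 can give. Replicate lists of a stage again count as separate values although they share the stage. Neither p-value therefore measures the spread between stages. Taking both replicates together, 1025 lost regions (47.9%) held an HNF4a stage region at E15.5 and 278 (13.0%) held one at P60; for kept regions the shares were 59.1% and 65.5%. Of the 1025 lost regions with HNF4a at E15.5, 245 (23.9%) had it at P60, against 4106 of 4756 kept regions (86.3%). Only 33 lost regions had HNF4a at P60 without having it at E15.5, against 1168 kept regions.

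Within the lost set, HNF4a followed the C/EBPa pattern unevenly. At E15.5 it was called in 35.9% of the regions bound up to P0.5, in 53.3% of those bound up to P14 and in 66.2% of those bound at E15.5 alone. At P60 these shares were 6.4%, 15.7% and 22.9%. Regions with no P60 peak of C/EBPa had an HNF4a stage region at P60 in 6.1%, those with a peak of replicate 2 alone in 14.0% and those with a peak of replicate 1 alone in 36.4%. Regions of 1 set are not replicates, so these differences were not tested.

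As merged, lost regions were narrower and lay farther from gene starts than kept ones. The median width of lost regions was 624 bases (quartiles 512 and 766), against 914 bases for kept regions. Kept regions hold a P60 stage region by the rule, which can add to their merged extent, so this is a description. Counted over the E15.5 part of each region alone, the medians were 379.5 and 411 bases. With overlap counted in that part only, the HNF4a difference was -29.7 points and its fetal to later change 34.9 points. Their exact permutation p-values, 0.0039 and 0.0286, were the smallest that these lists can give. Replicate lists of a stage count as separate values there, so neither p-value measures the spread between stages. A lost region covered a gene start in 57 cases (2.7%), against 10.5% of kept regions, and 32.6% lay within 10 kb of a start, against 42.7%. The median gap to the nearest start was 19637 bases, against 13632. These positions were measured from the edges of the merged regions and not from the E15.5 part alone. A kept region lay within 10 kb of 278 lost regions (13.0%), and 179 (8.4%) had another lost region that close. By chromosome, between 15.8% and 25% of E15.5-bound regions of an autosome were lost. The X chromosome had 66 lost and 143 kept regions (31.6% lost), and 25 of the 157 regions bound at E15.5 alone. Among those 25 were tight clusters, the largest with 7 regions (chrX:166578337-166626150) and 3 regions (chrX:166500298-166509119). The part of the clusters in the share of the X chromosome was not tested.

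**Figure D3:**
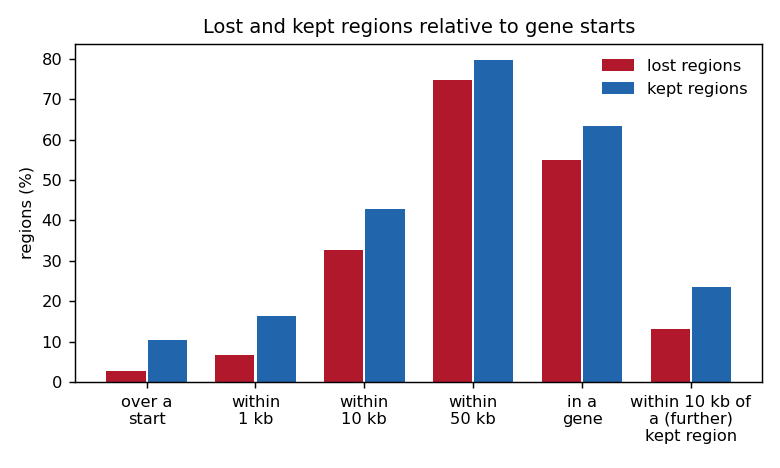
Percentage of lost and kept regions (bars) that cover a gene start, lie within 1, 10 or 50 kb of one, overlap a gene, or lie within 10 kb of a kept region other than themselves. Lost regions are below kept regions in each class, with 2.7% against 10.5% over a start and 74.7% against 79.7% within 50 kb. Distances are from the edges of the merged regions.

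The RNA libraries held 13.4 to 26.0 M normalized reads. Cebpa, whose start lies under a kept region, was 9999, 9594 and 5511 normalized reads in WT and 322, 419 and 998 in the C/EBPa knockout, a log2 change of -3.98 ± 0.44 (SE; limma adjusted p = 0.000413). Hnf4a was 9098, 4948 and 6718 in WT and 1238 and 2444 in the HNF4a knockout, a change of -1.95 ± 0.45 (limma adjusted p = 0.033). That call was lost without HNF4a knockout replicate 1, WT replicate 1 or WT replicate 3, with an adjusted p of up to 0.44 over the libraries left out. Alb, the defining hepatocyte product, stood at 1491169 to 3098691 in WT liver. HNF4a knockout replicate 1 carried RNA of skeletal muscle, with 279927 reads of Acta1 and 234321 of Ckm, against 94 and 20 in replicate 2. In these bulk samples, fewer cells of a type and less RNA per cell cannot be told apart.

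In both knockouts more genes next to lost regions fell than rose under the deposited scaling, as over all genes tested. A start lay within 10 kb of a lost region for 947 genes, of which 580 passed the filter on low values. Relative to WT, 21 of these fell in the C/EBPa knockout (3.62%) and 5 rose (0.862%); over all 17771 genes tested the shares were 2.86% lower and 0.883% higher. In the HNF4a knockout 13 fell (2.24%) and 3 rose (0.517%), against 3.17% and 1.54% of all genes. Their median log2 change was -0.01 in the C/EBPa knockout and 0.09 in the HNF4a knockout, against 0.03 and 0.02 over all genes. Of the 3115 tested genes near kept regions, 266 fell without C/EBPa (8.54%) and 237 without HNF4a (7.61%). Genes near both kinds showed 11 falls of 111 without C/EBPa (9.91%), whereas the 469 near lost regions alone showed 10 (2.13%). Scaling the libraries by their totals moved the median of all genes in the C/EBPa knockout by 0.50 on the log2 scale; 15 genes near lost regions then rose (2.60%) and 13 fell (2.25%), against 2.67% and 1.82% of all genes. With each library left out in turn, 9 to 28 fell and 1 to 3 rose without C/EBPa, and 2 to 21 fell and 0 to 12 rose without HNF4a. The fewest falls without C/EBPa came without WT replicate 1. The lowest counts without HNF4a came without HNF4a knockout replicate 1 and the highest without C/EBPa knockout replicate 3. No test of these shares was made.

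**Figure D4:**
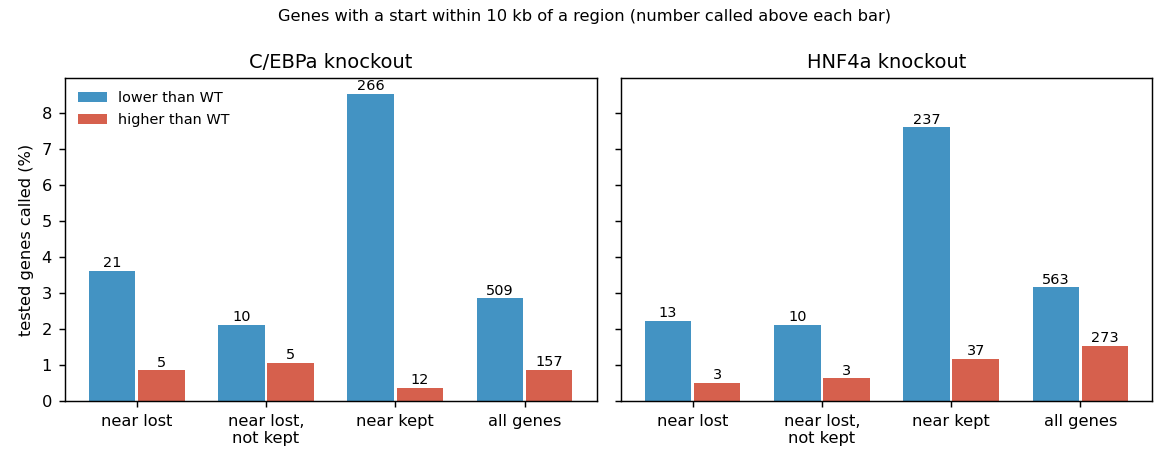
Percentage of tested genes called lower or higher than WT (limma adjusted p under 0.05) among genes with a start within 10 kb of a lost region, of a lost but no kept region, of a kept region, and among all genes, in the C/EBPa knockout (left) and HNF4a knockout (right); numbers above bars are genes. Falls without C/EBPa make up 3.62% near lost regions, 8.54% near kept regions and 2.86% of all genes.

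Fetal and imprinted genes were the group with most members beside lost regions: 5 of 17, namely Afp, H19, Igf2, Grb10 and Peg3, with 5 of 17 beside kept regions. Over all protein-coding genes, 2.69% had a lost region within 10 kb and 14.0% a kept one; the lists were drawn up with earlier results of these data known, so this is a description. Afp, which encodes the main plasma protein of the fetus, has a lost region over its start (chr5:90919429-90919965) and another 2.1 kb upstream (chr5:90917046-90918181), while regions 4.9 and 6.6 kb upstream were kept. The one at the start held C/EBPa peaks in both lists of E15.5, E18.5 and P0.5 and in no later list, and HNF4a peaks at E15.5 alone. The upstream region held HNF4a in all 7 distinct lists from E15.5 to P14 and in neither P60 list. It still held a C/EBPa peak of P60 replicate 2. Afp RNA was 625821, 499143 and 706964 normalized reads in WT, 381833, 97621 and 349858 without C/EBPa and 227430 and 305323 without HNF4a. Every knockout liver lay below every WT liver, but the spread was wide and neither difference passed (log2 -1.36 ± 1.09 and -1.20 ± 1.22; limma adjusted p = 0.665 and 0.606).

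The imprinted genes lay farther from their lost regions. H19, an imprinted long noncoding RNA, has one 8.8 kb downstream of its start (chr7:149754656-149755753), bound by C/EBPa up to P14 and by HNF4a at E15.5, E18.5 and P14. Igf2, the neighbouring fetal growth factor, has one 2.1 kb into the gene (chr7:149850350-149850821) that was bound up to P0.5, with kept regions on both sides. Grb10, an imprinted adaptor that restrains growth, has one 2.9 kb upstream (chr11:11941200-11942026) and a kept region over its start. Grb10 RNA was 53291, 40462 and 44603 in WT, 18055, 10574 and 22012 without C/EBPa and 12051 and 11846 without HNF4a. The groups did not overlap, yet neither change passed (-1.51 ± 0.45 and -1.94 ± 0.51; limma adjusted p = 0.116 and 0.0554). Peg3, an imprinted zinc finger gene with a lost region 2.3 kb upstream, ranged from 4809 to 13063 in WT and from 10853 to 18742 without C/EBPa. None of the 5 passed in either knockout.

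Granulocyte genes followed, with 3 of 17 beside lost regions and 3 beside kept regions. Ltf, the iron-binding protein of neutrophil granules, has a lost region over its start (chr9:110921413-110922075), bound up to P14. Mmp8, the neutrophil collagenase, has one over its start (chr9:7558107-7558611), bound up to P0.5. Both of these regions still held a C/EBPa peak of P60 replicate 2, and none of P60 replicate 1. Cebpe, the C/EBP family member of late granulocyte maturation, has 2 lost regions 5.4 and 6.2 kb downstream of its start (chr14:55325269-55325870 and chr14:55324443-55325181). The Ltf and Mmp8 regions held no HNF4a peak in any list. Ltf RNA was 9291, 7384 and 4059 in WT, 4080, 6724 and 3855 without C/EBPa, and 10106 and 6788 without HNF4a, so the groups overlapped. No granulocyte gene passed in either knockout; the summed level of the 17 markers ranged from 55086 to 79484 in WT, from 44816 to 106739 without C/EBPa and from 121294 to 132162 without HNF4a.

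In the other blood-lineage lists, 2 genes had a lost region nearby, and the share over all protein-coding genes was 2.69%. Sfpi1 encodes PU.1, the master factor of macrophages and granulocytes, and was the only one of 15 macrophage genes, with a lost region 0.7 kb into the gene (chr2:90922923-90923522) that held no HNF4a peak. Its RNA was 433, 453 and 393 in WT, 416, 564 and 575 without C/EBPa, and 887 and 927 without HNF4a (1.09 ± 0.33; limma adjusted p = 0.0857). Tfrc, the transferrin receptor through which erythroid precursors take up iron, was the only one of 22 erythroid genes in the table. The lost region over its start (chr16:32607956-32609320) was bound by C/EBPa up to P14 and held HNF4a stage regions at E15.5, P14 and P60. That region still held a C/EBPa peak of P60 replicate 1. Tfrc RNA ranged from 7594 to 9678 in WT, from 5605 to 12363 without C/EBPa and from 3590 to 7129 without HNF4a, and did not pass. No megakaryocyte or mast cell gene (of 11), lymphocyte gene (of 10) or blood progenitor gene (of 10) had a start that close to a lost region.

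Among genes of mature hepatocyte function, none of 24 plasma protein genes had a lost region within 10 kb, and 20 had a kept one. Of 25 genes of hepatocyte metabolism 1 had a lost and 12 a kept region. Over all protein-coding genes the shares were 2.69% with a lost and 14.0% with a kept region. The 1 was Cps1, the first enzyme of the urea cycle, with a lost region 5.2 kb into the gene (chr1:67174172-67175345) and kept regions at its start, 2.5 kb into the gene and 6.3 and 9.5 kb upstream. That lost region is 1 of the 5 with a peak of each P60 replicate that did not join. Cps1 RNA fell from 42271, 35402 and 52397 in WT to 185, 87 and 625 without C/EBPa (-7.62 ± 0.59; limma adjusted p = 4.54e-05) and was 23796 and 22966 without HNF4a (-0.87 ± 0.66; limma adjusted p = 0.474). Of 26 liver transcription factors, Foxa3 and Hhex had a lost region within the window, and 11 had a kept one. The Hhex region lay 5.6 kb upstream and was bound up to P14. The Foxa3 region was bound at E15.5 alone (chr7:19618854-19619149), with its nearer edge within 10 kb of the start. A C/EBPa peak of P60 replicate 1 also lay in it. Neither gene passed in either knockout.

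The other cell types contributed 1 gene each or none. Stab1, a scavenger receptor of sinusoidal endothelium, was the only one of 11 endothelial genes, with WT values from 1170 to 1848 and no call. Acta2, the actin of activated stellate and smooth muscle cells, was the only one of 11 stellate genes. It was 994, 375 and 970 in WT and 4175 and 3474 without HNF4a (2.42 ± 0.45; limma adjusted p = 0.0107), and 3 of the 11 stellate genes rose there, against 1.54% of all genes, with a summed level of 40797 to 97805 against 13828 to 21155 in WT. The call was lost without either HNF4a knockout library, with an adjusted p of up to 0.14; the part of stellate or muscle RNA in it was not tested. No bile duct gene (of 10) or cell cycle gene (of 25) had a lost region within 10 kb.

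Of the genes with a lost region and no kept region within 10 kb, 24 were called in at least 1 knockout, 4 of them in both. Of the 469 such genes tested, 1.07% rose and 2.13% fell without C/EBPa, against 0.883% and 2.86% of all genes. Without HNF4a these shares were 0.64% and 2.13%, against 1.54% and 3.17%. The 8 largest falls without C/EBPa included 2 with a lost region over the start. Enpp2 encodes autotaxin, the enzyme that makes lysophosphatidic acid. Its start lay under a region bound up to P14 (chr15:54751390-54751971), which still held a C/EBPa peak of P60 replicate 2. Enpp2 RNA was 999, 926 and 1572 in WT, 139, 38 and 72 without C/EBPa (-3.95 ± 0.48, a 15.4-fold fall; limma adjusted p = 0.000889) and 188 and 330 without HNF4a (-2.18 ± 0.54; limma adjusted p = 0.0446). The first call held with each library left out, and the second was lost without any of 5 of them (adjusted p up to 0.441; each HNF4a knockout or WT library). Lrtm1, a leucine-rich repeat membrane protein, has a region bound up to P14 over its start (chr14:29830824-29831600) with HNF4a called there at P60. A C/EBPa peak of P60 replicate 2 also lay there. Lrtm1 RNA was 207, 180 and 100 in WT and 1, 0 and 1 without C/EBPa (limma adjusted p = 0.00819, and 0.0529 without WT replicate 1). Without HNF4a its values were 358 in replicate 1, the library with skeletal muscle RNA, and 6 in replicate 2, on both sides of WT. The part of muscle RNA in the high value was not tested.

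The other falls included genes of metabolism and transport. Miox, which opens the breakdown of myo-inositol, was 76, 107 and 39 in WT and 0 in all 3 C/EBPa knockout livers, at least 24.7-fold lower against a floor of 3 reads per library (limma adjusted p = 0.00101). Cyp3a57, a cytochrome P450 of a family whose near-identical copies may share reads, was 30, 40 and 39 in WT and 0 in all 3, at least 12.1-fold lower (limma adjusted p = 0.00424). It was 3 and 1 without HNF4a (limma adjusted p = 0.0448), a call lost without C/EBPa knockout replicate 1, either HNF4a knockout library or any WT library (up to 0.205). Slc6a12, a betaine transporter, was 1116, 829 and 511 in WT and 76, 90 and 137 without C/EBPa (-2.98 ± 0.49; limma adjusted p = 0.0052). The calls of Enpp2, Miox, Cyp3a57 and Slc6a12 in the C/EBPa knockout held with each of the 8 libraries left out. Ivd, an enzyme of leucine breakdown, fell by 1.65 ± 0.38 (limma adjusted p = 0.0342), a call lost when any library but C/EBPa knockout replicate 3 was left out (up to 0.198). Its lost region lay 8.9 kb upstream.

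Of the remaining falls, Sall4, a zinc finger factor of the fetal liver, was 346, 404 and 213 in WT and 60, 22 and 52 without C/EBPa (-2.89 ± 0.50; limma adjusted p = 0.00736, and 0.0561 without WT replicate 1). It lies 8.6 kb from a region bound up to P14 (chr2:168601558-168602458) that carried HNF4a at E15.5 and P0.5. That region still held a C/EBPa peak of P60 replicate 1. Cd9, a tetraspanin, was 2330, 3298 and 2073 in WT and 375, 173 and 1092 without C/EBPa (-2.60 ± 0.55; limma adjusted p = 0.0229). The Cd9 call was lost without C/EBPa knockout replicate 1 or any WT library (up to 0.0988).

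All 5 rises without C/EBPa were lost when some library was left out. Ezr, which links actin to the membrane, was 846, 747 and 1026 in WT and 1959, 2445 and 2010 without C/EBPa (1.30 ± 0.28; limma adjusted p = 0.0278). That call was lost without C/EBPa knockout replicate 1 or 2, either HNF4a knockout library, or WT replicate 1 or 2 (up to 0.151). Dcdc2a, a doublecortin domain protein, was 51, 19 and 118 in WT and 377, 207 and 777 without C/EBPa (2.98 ± 0.68; limma adjusted p = 0.0336). That call was lost without C/EBPa knockout replicate 1 or 3, either HNF4a knockout library, or WT replicate 1 or 2 (up to 0.129). Cldn4, a tight junction claudin, was 14, 0 and 16 in WT and 100, 160 and 1064 without C/EBPa (limma adjusted p = 0.0213, and 0.0579 without C/EBPa knockout replicate 3). Beside these, 4 of 8 tested bile duct markers rose in the same livers, against 0.883% of all genes, and their list had a summed level of 9186 to 11379 against 1559 to 3027 in WT; their part in the rises was not tested. Trpv6, a calcium channel, was 1, 0 and 0 in WT and 15, 13 and 26 without C/EBPa (limma adjusted p = 0.0463). The uncharacterised 3110070M22Rik was 0, 0 and 1 in WT, 22, 10 and 10 without C/EBPa and 12 and 25 without HNF4a (limma adjusted p = 0.0434 and 0.0403). Both are close to the limit of detection, and no fold is given. Leaving out any of the 8 libraries ended both calls in the C/EBPa knockout (up to 0.157 and 0.189), and leaving out any but C/EBPa knockout replicate 3 ended that of 3110070M22Rik in the HNF4a knockout (up to 0.224).

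The largest falls in the HNF4a knockout, beside Cyp3a57, were those of Slc6a19, Slc44a4 and Pls1. Slc6a19, a neutral amino acid transporter, was 38, 48 and 71 in WT, 57, 33 and 39 without C/EBPa, and 1 and 2 without HNF4a (limma adjusted p = 0.00339). Its call held with each library left out. Its lost region, 7.5 kb upstream (chr13:73849540-73850128), carried HNF4a peaks in both E15.5 lists and 1 E18.5 list. Slc44a4, a choline transporter-like protein, was 58, 88 and 107 in WT and 3 and 8 without HNF4a (-3.79 ± 0.59; limma adjusted p = 0.00405, and 0.0546 without HNF4a knockout replicate 1). Pls1, an actin bundler of microvilli, was 372, 380 and 571 in WT and 33 and 74 without HNF4a (-3.10 ± 0.48; limma adjusted p = 0.00417, and 0.0728 without HNF4a knockout replicate 1). The Slc44a4 and Pls1 regions held no HNF4a peak in any list. Besides Acta2 and 3110070M22Rik, Cd63-ps rose (1.65 ± 0.38; limma adjusted p = 0.0317). It is a pseudogene whose reads may belong to Cd63, and its call was lost without either HNF4a knockout library or any WT library (up to 0.389).

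**Figure D5:**
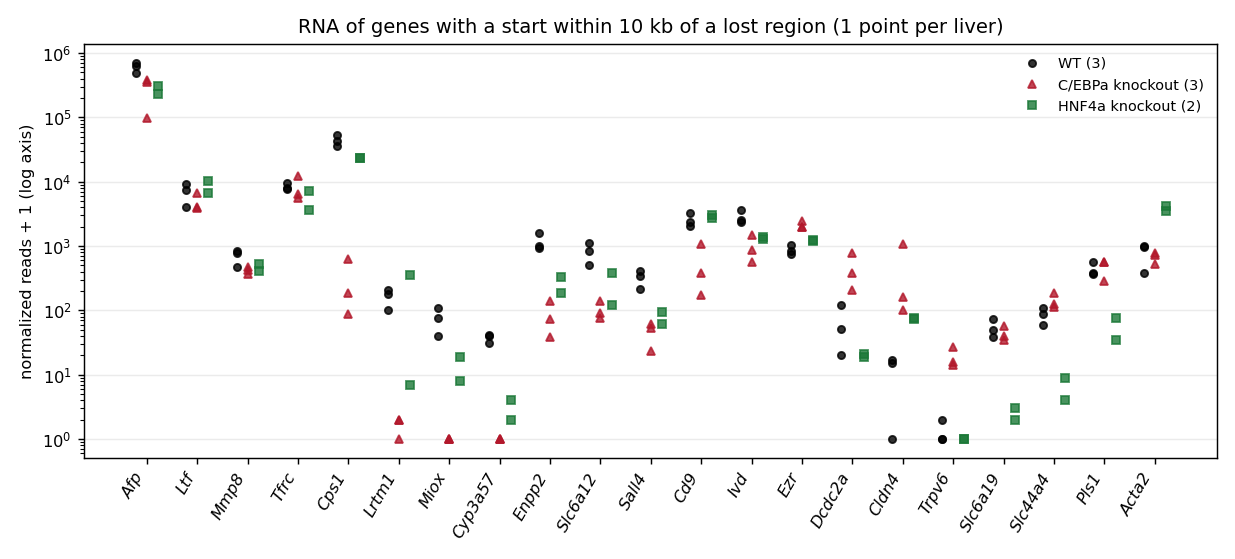
Normalized reads plus 1 (log axis) of genes with a start within 10 kb of a lost region, 1 point per liver: WT (circles), C/EBPa knockout (triangles) and HNF4a knockout (squares). Afp, Ltf, Mmp8 and Tfrc were not called in either knockout; Cps1 and the genes from Lrtm1 to Trpv6 were called without C/EBPa, and the last 4 genes were called without HNF4a and not without C/EBPa.

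Taken over the named genes, 34 lost regions lay within 10 kb of a start. Of these, 18 were bound up to P14, 14 held no P60 peak of C/EBPa, 16 held no HNF4a peak in any list, 14 had an HNF4a stage region at E15.5 and 2 had one at P60.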

How the data were processed

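Members and gene lists were chosen with earlier results of these data known. Per the submitters' processing notes, peaks were called with MACS 1.4 and mapped to mm9, and BWA, TopHat2, Cufflinks, bedtools and DESeq were also used, with no role given here. The deposited peak lists give start and end in bases, a unit of position only; their score column is 0, so peak height is unknown, and no read depth is given. The RNA table holds normalized reads rounded to whole numbers by the authors, named DESeq-normalized in the deposited table and treated as a score, with GC content as a fraction, per the file headers. Normalization to size factors removes library depth, so values are relative, and a count test had no place; limma was planned and used.

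Intervals were merged in Python 3.11 code checked on 1200 simulated intervals with 0 errors. Genes reaching 10 in 2 or more libraries were tested (17771 of 37583). Values were analysed as log2(value + 1), which understates changes of low genes, in limma 3.58.1 (R 4.3.3) with a variance trend, all 8 libraries in 1 fit. The threshold was a 2-sided p under 0.05 after Benjamini-Hochberg adjustment over all genes. Labels do not say whether replicates are separate animals, so p-values may cover technical spread only. Each library is called a liver here, although the labels do not settle that each came from its own animal. In simulations on 17771 genes the C/EBPa contrast recovered 0%, 38.5%, 80.5% and 86.5% of genes changed 2-, 4-, 8- and 16-fold, and the HNF4a contrast 0%, 20.5%, 74.5% and 86.0%. Each simulation changed 200 genes, fewer than were called in the data. Shares over peak lists were compared by exact permutation, each list 1 value, identical lists counted once, adjusted over 3 tests. Of these, the comparison of C/EBPa peaks at the middle stages is reported as a description only.

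Genes were named by rule: among genes with a start within 10 kb of a lost and no kept region, the 8 largest rises and 8 largest falls called in the C/EBPa knockout and the 4 and 4 in the HNF4a knockout; all listed genes within 10 kb of a lost region; and Cebpa and Hnf4a. The 14 lists were granulocyte precursors, macrophages, erythroid cells, megakaryocytes and mast cells, lymphocytes, blood progenitors, fetal and imprinted genes, liver transcription factors, plasma proteins, hepatocyte metabolism, bile duct, endothelial and stellate cells, and cell cycle. Promoters came from RefSeq (GRCm38.p6), the outermost start per gene; region sequences were not used here. Alternatives included region rules, windows, pseudocount, filters, scaling, variance trend, a replicate block and each library left out.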

Additional observations from a re-analysis of the deposited data

Results flagged for a closer look

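The HNF4a deficit of lost relative to kept regions differed between fetal and later lists by 34.2 percentage points (-13.6 in the 4 lists of E15.5 and E18.5, -47.9 in the 4 lists of P14 and P60; exact permutation p = 0.0286, 2-sided). Replicate lists of a stage count as separate values here, so this p-value does not measure the spread between stages. Every fetal list had a smaller deficit than every later one. Peak width moved with it: the HNF4a lists of E15.5 and E18.5 had median peak widths of 337 to 452 bases and those of P14 and P60 579 to 914 bases. The parts of HNF4a peak width and of the choice of regions by C/EBPa at P60 in the difference were not tested. With overlap counted only in the E15.5 part of each region, which leaves the HNF4a peaks as they were, the difference was 34.9 points (exact permutation p = 0.0286).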

How the results depend on the processing

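No difference between lists and none of the 24 named calls changed direction in any alternative. Requiring no P60 peak of either replicate left 824 lost regions, with HNF4a in 12.6% at P0.5, 4.6% at P14 and 6.1% at P60. Counting overlap only in the E15.5 part gave 56.9% of kept regions with HNF4a at E15.5 and 22.8% at E18.5. Without the E18.5 HNF4a lists the fetal to later difference was 36.8 points (exact permutation p = 0.0667, the smallest possible). With 1 C/EBPa list of E15.5 or P60 left out, lost regions numbered 1011 to 4789, with HNF4a in 35.1% to 53.1% at E15.5, 7.5% to 10.8% at E18.5, 11.4% to 18.8% at P0.5, 5.0% to 9.2% at P14 and 10.7% to 11.7% at P60. For kept regions these were 53.3% to 59.3%, 21.1% to 23.6%, 45.0% to 47.7%, 46.0% to 49.7% and 59.2% to 64.8%. The mean HNF4a difference ranged from -34.1 to -27.8 points; leaving out the lists of either replicate number gave -31.2 and -30.4 (exact permutation p = 0.125 and 0.0625, too few lists to pass).

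Counts of called genes near lost regions moved with most choices; a larger overlap to join peaks (0.5 of the shorter interval) left them at 5, 21, 3 and 13. Rises without C/EBPa numbered 3 with a filter of 50 and 3 without the variance trend. Falls numbered 13 without the trend and 10 with genes near kept regions left out. Library totals gave 15 rises and 13 falls, and 1 rise without HNF4a. Rises without HNF4a numbered 7 with no filter, 5 without the trend and 6 with a pseudocount of 10. A window of 1 kb gave 2 rises and 4 falls without C/EBPa, and 1 and 1 without HNF4a; 50 kb gave 22 and 63, and 33 and 62; the nearest start gave 14 and 42, and 19 and 34. Regions with no P60 peak gave 3 and 5, and 1 and 5. With each library left out, rises without C/EBPa numbered 1 to 3 and falls 9 to 28; without HNF4a, 0 to 12 and 2 to 21. Where that leaves 1 HNF4a knockout library, it is assumed to vary like the others.

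Deviations of same-numbered WT and C/EBPa knockout libraries from their group means had correlations of -0.063, 0.19 and -0.231. Differently numbered ones ran from -0.424 (WT replicate 2, knockout replicate 1) to 0.491 (WT replicate 3, knockout replicate 1). So few libraries cannot decide whether the numbers mark a pairing. A replicate block gave 2 rises and 15 falls without C/EBPa, and 2 and 6 without HNF4a. Of the 24 named calls, 7 passed in every alternative. Among the named genes, only log2 changes that passed neither before nor after turned sign, and the cause was not tested. Under library totals these were, without C/EBPa, Acta2 (0.40), Cd63-ps (0.17), Slc6a19 (0.23), Tfrc (0.39), Hhex (0.28), Ltf (0.04) and Foxa3 (0.14), and, without HNF4a, Stab1 (-0.03). With a library left out, those without C/EBPa spanned -0.57 to 0.13 for Acta2, -0.18 to 0.48 for Cebpe, -0.99 to 0.10 for Foxa3, -0.13 to 0.38 for Pls1, -0.26 to 0.29 for Stab1 and -0.46 to 0.11 for Tfrc. Those without HNF4a spanned -0.12 to 0.73 for Foxa3, -0.05 to 1.5 for H19, -4.48 to 1.20 for Lrtm1, 0.00 to 0.63 for Ltf, -0.15 to 0.23 for Stab1 and -0.50 to 0.00 for Trpv6. In the simulations 0% of genes changed 2-fold were recovered, but these changed only 200 genes, fewer than were called in the data. Some changes under 4-fold were called in the data, such as that of Ezr without C/EBPa (2.46-fold).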

Other observations

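The regions bound at E15.5 alone included tight clusters, chosen here after their values were seen. Of these 157 regions, 54 lay within 50 kb of another, in 16 clusters. The largest held 7 regions on the X chromosome (chrX:166578337-166626150), of which 5 carried HNF4a at E15.5 and 0 at P60. The next held 6 regions within 17.0 kb on chromosome 10 (chr10:57683518-57700499), around the start of Dux, a double homeobox factor of the early embryo encoded in repeated copies. Dux RNA was 0 in all 3 WT livers. Clustered regions had a median width of 932 bases and the 103 others one of 402 bases. HNF4a at E15.5 was called in 68.5% of the clustered and 65.0% of the other regions. Of the 157 regions, 93 held a peak in at least 1 C/EBPa list of another stage. Reads from repeated copies may not have a unique place, and their part in the clusters was not tested.

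Some genes had several lost and no kept regions within 50 kb of their start, also chosen after their values were seen. Those with the most, 6 lost and 0 kept, were Dux and its neighbours Gcc2 and Gm4981 at the chromosome 10 cluster. Gcc2, a Golgi protein, was 365, 268 and 652 in WT, 634, 458 and 273 without C/EBPa, and 265 and 242 without HNF4a, with no call, and Gm4981 was 0 in all 8 libraries. Of the genes with 0 kept regions, the next were Csf2ra and Apbb1ip. Csf2ra, a receptor chain for the granulocyte-macrophage growth factor GM-CSF, had 4 lost regions and 0 kept. Csf2ra RNA was 351, 324 and 233 in WT, 269, 128 and 728 without C/EBPa, and 402 and 415 without HNF4a, with no call (-0.03 ± 0.54 and 0.45 ± 0.60). Apbb1ip, an adaptor of integrin activation in blood cells, also had 4 lost and 0 kept, and 356, 398 and 458 reads in WT. Over all protein-coding genes, 2216 had 1 lost region within 50 kb, 264 had 2, 24 had 3, 6 had 4, 2 had 5 and 4 had 6.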
